A study of Mus musculus with 6 samples.

Results

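The genes described here are the 3 canonical subunits of the transcription factor NF-κB (Nfkb1, Rela and Rel) and 7 genes whose products restrain or tune it (Nfkbia, Nfkbib, Nfkbie, Nfkbiz, Bcl3, Tnfaip3 and Tnip1). They were taken by symbol from a table of raw RNA sequencing counts that lists 43074 gene symbols. All 10 symbols were found, and all 10 were among the 17433 genes that passed the filter on low counts. The libraries came from C2C12, a mouse myoblast line that fuses into myotubes when it is moved to differentiation medium. Every library was labelled with a wild-type genotype and the same batch number. Day 0 libraries came from untreated cells, and day 4 libraries from cells kept for 4 days in medium with horse serum and either DMSO or 1 mM 4-phenylbutyric acid (4-PBA), a small aromatic fatty acid used as a chemical chaperone and known as an inhibitor of histone deacetylases. There were 2 libraries in each of the 3 groups. The day 0 cells had no DMSO and had not been in horse serum, so the effects of time, medium and vehicle cannot be told apart in a comparison of day 4 with day 0. The title of the series speaks of NF-κB being activated by 4-PBA, and setting the drug against DMSO addresses the transcripts of the pathway's own components.

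In resting cells NF-κB dimers are held in the cytoplasm by the classical inhibitors IκBα, IκBβ and IκBε, the products of Nfkbia, Nfkbib and Nfkbie. When the IκB kinase is activated, these inhibitors are phosphorylated and degraded, and the freed dimers enter the nucleus. NF-κB then induces several of its own inhibitors, which makes the pathway self-limiting. In skeletal muscle the canonical pathway is best known for opposing myoblast differentiation and for its part in muscle wasting. The measurements below are of transcripts, so they do not report the location, phosphorylation or activity of any of these proteins.

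The promoter windows of the inhibitors are shown first because self-induction depends on κB sites, the short sequences that NF-κB dimers bind. RefSeq gave windows from 250 bases before to 50 bases after the gene start for 8 of the 10 genes, on mouse build GRCm38.p6. Nfkb1 and Nfkbiz had no entry. The 10-base κB consensus was searched on both strands. At least 1 match lay in a window of 6 of the 8 genes, namely Rel, Nfkbia, Nfkbie, Bcl3, Tnfaip3 and Tnip1. Over all RefSeq windows of this length, 2779 of 32851 (8.46%) held a match, and 2581 of 27025 genes (9.55%) had one in any window. Rela and Nfkbib had no match in their windows. The windows of the 3 genes on which the results below turn most, Nfkbie, Tnip1 and Tnfaip3, are printed over the 150 bases before the gene start, and those of the other 3 genes over 30 bases around the match. They read 5′ to 3′ on the strand of the gene, and capitals mark the matched bases.
Nfkbie: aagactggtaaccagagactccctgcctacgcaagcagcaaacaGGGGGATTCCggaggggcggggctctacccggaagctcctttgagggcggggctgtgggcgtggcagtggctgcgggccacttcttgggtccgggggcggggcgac
Tnip1: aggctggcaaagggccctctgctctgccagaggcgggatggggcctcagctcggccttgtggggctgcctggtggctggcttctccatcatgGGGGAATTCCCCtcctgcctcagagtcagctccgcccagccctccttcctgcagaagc
Tnfaip3: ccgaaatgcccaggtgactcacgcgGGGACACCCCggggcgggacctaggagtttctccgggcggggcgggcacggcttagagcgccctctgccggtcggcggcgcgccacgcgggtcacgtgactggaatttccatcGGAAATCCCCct
Nfkbia: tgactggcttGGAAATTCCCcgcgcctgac
Rel: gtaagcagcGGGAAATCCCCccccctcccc
Bcl3: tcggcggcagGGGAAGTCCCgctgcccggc

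The Nfkbie stretch is chr17:45555550-45555699 (plus strand), that of Tnip1 chr11:54962941-54963090 (minus strand) and that of Tnfaip3 chr10:19015411-19015560 (minus strand). The shorter stretches are chr12:55492657-55492686 for Nfkbia, chr11:23771041-23771070 for Rel and chr7:19822734-19822763 for Bcl3, all on the minus strand. The 12 capital bases of Tnip1 hold 3 overlapping matches, and the capitals of Rel hold 2. Tnfaip3 had a second annotated start, whose window held no match. The match of Bcl3 began at the third base after the gene start, and the others lay before it. These matches describe letters in a window and were not tested for binding.

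Total counts ranged from 47908926 to 74697397 per library, and the 10 genes took between 97 counts (Bcl3, day 0 replicate 1) and 10415 counts (Nfkb1, day 0 replicate 2). Levels are given as CPM, the usual counts scaled to library size, here with TMM factors. Of 7 myogenic markers, all had counts in every library. Myod1 stood at 95.8 to 116 CPM throughout, Myog at 7.85 and 7.94 CPM at day 0 and 277 to 297 CPM at day 4, and Myf5, a marker of the myoblast stage, at 50.4 and 49.98 CPM at day 0 and 22.7 to 24.5 CPM at day 4. Of the macrophage markers, which could accompany inflammatory genes, Ptprc had at most 3 counts in a library. The 5 macrophage markers summed to 5.71 to 6.11 CPM at day 0, 1.97 to 2.57 CPM with DMSO and 1.63 to 2.80 CPM with 4-PBA, most of it from Cd68 (5.31 to 5.47 CPM at day 0 and 1.34 to 2.35 CPM at day 4), and their part in the results was not tested. Between replicates the ratio of chi-square to its degrees of freedom was 3.77 to 6.64 over all genes, where counting noise alone gives 1. Over the 10 genes it was 1.72 at day 0, 1.85 with DMSO and 18.8 with 4-PBA, and the last value came mostly from Nfkbiz, as described below.

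Per kilobase of exon, which allows levels to be compared between genes, Rela and Nfkb1 were the most abundant of the 10 transcripts in every group. At day 0 Rela stood at 39.5 ± 0.364 and Nfkb1 at 36.0 ± 0.0857 CPM per kilobase (SD, n = 2). They were followed by Tnfaip3 (12.7 ± 0.0970), Nfkbia (11.3 ± 0.663), Tnip1 (10.9 ± 0.327), Nfkbib (8.52 ± 0.735) and Nfkbiz (6.48 ± 0.306 CPM per kilobase). Rel (1.88), Nfkbie (1.83) and Bcl3 (1.12 CPM per kilobase) were the least abundant. The libraries of Nfkbia and Tnip1 overlapped at day 0, so the order of that pair was not resolved. With DMSO at day 4, Tnip1 had moved from the fifth to the third place, at 21.4 ± 0.182, and Tnfaip3 from the third to the fifth, at 11.4 ± 0.249 CPM per kilobase. With 4-PBA the order of the 10 means was the same as with DMSO. There the libraries of Nfkbiz overlapped those of Tnfaip3 and Nfkbib, and those of Rel and Bcl3 overlapped each other in both day 4 groups.

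**Figure D1:**
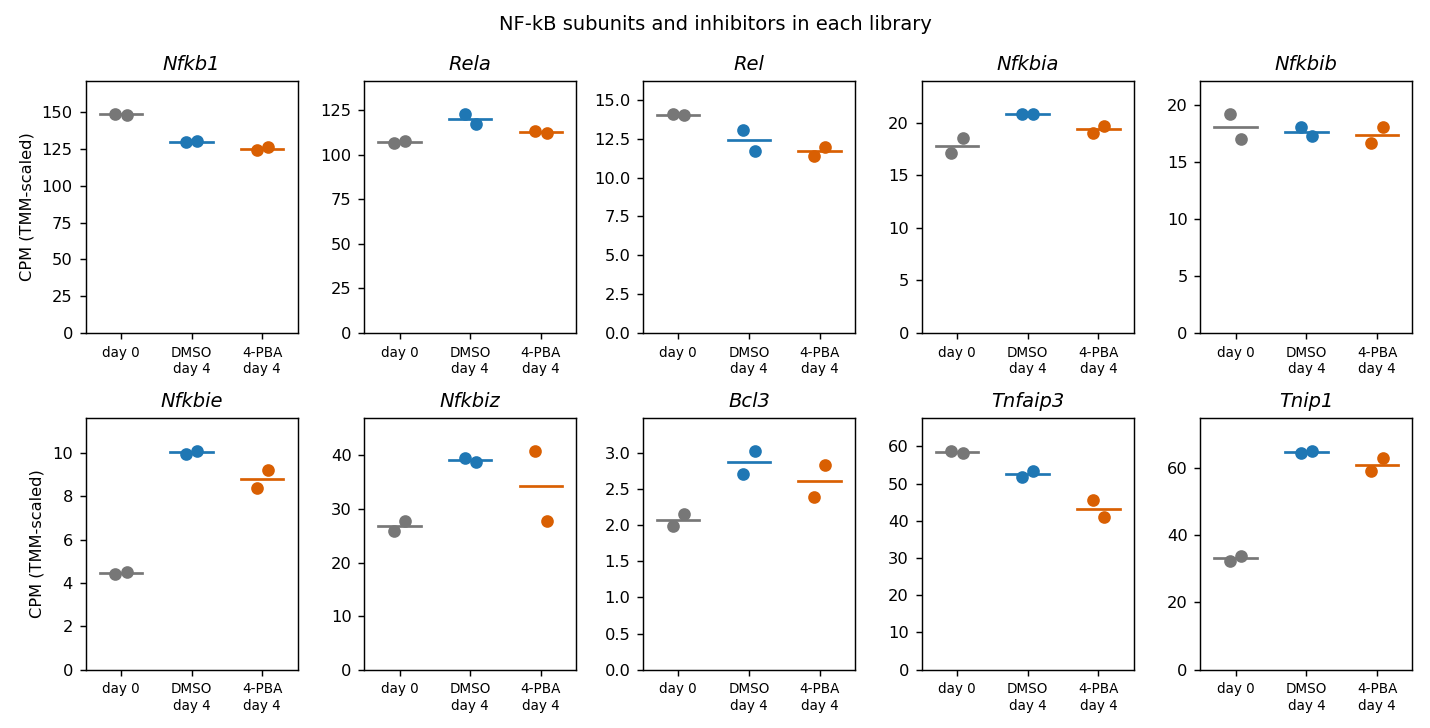
Expression of the 10 genes in each library, in TMM-scaled CPM on an axis that starts at 0 for each gene. Points are single libraries and short lines are the means of 2 libraries in the day 0, DMSO day 4 and 4-PBA day 4 groups. Nfkbie and Tnip1 are about doubled at day 4, Tnfaip3 is lowest with 4-PBA, and the 4-PBA libraries of Nfkbiz lie far apart at 40.9 and 27.8 CPM.

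Differentiation without the drug was examined first, by comparing DMSO at day 4 with day 0. The inhibitors Nfkbie and Tnip1 about doubled, while of the subunits Nfkb1 fell by 12.5% and Rela rose 1.12-fold. edgeR's quasi-likelihood test, with Benjamini-Hochberg adjustment over all 17433 genes and a threshold of 0.05, called 7 of the 10 genes, 5 higher and 2 lower. Over all genes it called 66.3% (33.8% higher and 32.6% lower), so the share among the 10 is near the background. The libraries of the 2 groups did not overlap for 9 of the 10 genes, nor for 81.9% of all genes. The median log2 fold change was 0.19 over the 10 genes and 0.023 over all genes. In RNA from whole cultures, a change in the share of cells that express a gene and a change in its level per cell cannot be told apart.

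Among the subunits, Nfkb1 encodes p105, the precursor of the DNA-binding subunit p50. It stood at 149 and 148 CPM at day 0 and at 129.9 and 130.3 CPM with DMSO. The groups did not overlap, and Nfkb1 fell by 0.19 on the log2 scale (SE 0.0338, adjusted p 5.98e-06). Rela encodes p65, the main transactivating subunit, and went the other way, from 107 and 108 CPM to 123 and 117 CPM. Its log2 fold change was 0.16 (SE 0.0364, adjusted p 1.84e-04). Rel encodes c-Rel, the subunit best known from lymphocytes. It stood at 14.09 and 14 CPM at day 0 and 13.1 and 11.7 CPM with DMSO, without overlap, and was not called (log2 fold change -0.18, 95% interval -0.36 to -0.0096, adjusted p 0.0583). Of 14 alternatives, whose adjusted p ranged from 0.0213 to 0.399, 3 did call Rel: scaling by DESeq2 size factors (0.0474), by library size only (0.0291), and leaving out DMSO replicate 1 (0.0213).

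Of the classical IκB genes, Nfkbie changed most. It was at 4.42 and 4.501 CPM at day 0 and at 9.95 and 10.1 CPM with DMSO, a 2.24-fold rise (log2 fold change 1.17, SE 0.111, adjusted p 1.97e-11). Nfkbia, whose product is the fastest of the feedback inhibitors, was at 17.1 and 18.6 CPM and then at 20.84 and 20.83 CPM. Its rise was 1.17-fold (log2 fold change 0.22, SE 0.0715, adjusted p 0.00683), and without day 0 replicate 1 it was not called (log2 fold change 0.16, adjusted p 0.111). Nfkbib was at 19.2 and 17.0 CPM at day 0 and 18.0 and 17.3 CPM with DMSO, so its groups overlapped. It was not called (log2 fold change -0.031, 95% interval -0.19 to 0.13, adjusted p 0.742), and its exons overlap Ccer2 on the opposite strand.

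The nuclear IκB proteins IκBζ and Bcl-3 bind p50 in the nucleus and can activate as well as repress transcription. Nfkbiz, which encodes IκBζ, was at 25.9 and 27.7 CPM at day 0 and at 39.6 and 38.8 CPM with DMSO, a clear separation. Its log2 fold change was 0.54 with a wide 95% interval of -0.14 to 1.23, and it was not called (adjusted p 0.120). The spread that entered this test was shared with the 4-PBA libraries, which differed strongly for Nfkbiz. In a fit of the 4 day 0 and DMSO libraries alone the log2 fold change was 0.54 and the adjusted p 4.65e-08. Without 4-PBA replicate 1 or 2 the log2 fold change was 0.548 or 0.544. Of the 14 alternatives, 5 called Nfkbiz and 9 did not, with log2 fold changes from 0.50 to 0.60. Bcl3 was low, at 1.996 and 2.15 CPM at day 0 and 2.71 and 3.03 CPM with DMSO. It rose 1.38-fold (log2 fold change 0.47, SE 0.183, adjusted p 0.0249), but the call was lost with the DESeq2 Wald test (adjusted p 0.0751). It was also lost without day 0 replicate 1 (0.113), day 0 replicate 2 (0.0566) or DMSO replicate 2 (0.158). Exons of Bcl3 overlap Gm16175 on the opposite strand.

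Tnfaip3 encodes A20, a ubiquitin-editing enzyme that shuts off signalling upstream of the IκB kinase, and Tnip1 encodes an adaptor that binds A20. Their transcripts moved in opposite directions. Tnip1 rose from 32.4 and 33.8 CPM to 64.3 and 65.1 CPM, a 1.96-fold change (log2 fold change 0.97, SE 0.0489, adjusted p 6.72e-19). Tnfaip3 fell from 58.9 and 58.2 CPM to 51.7 and 53.4 CPM (log2 fold change -0.16, SE 0.0496, adjusted p 0.00646). Neither gene had overlapping groups.

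**Figure D2:**
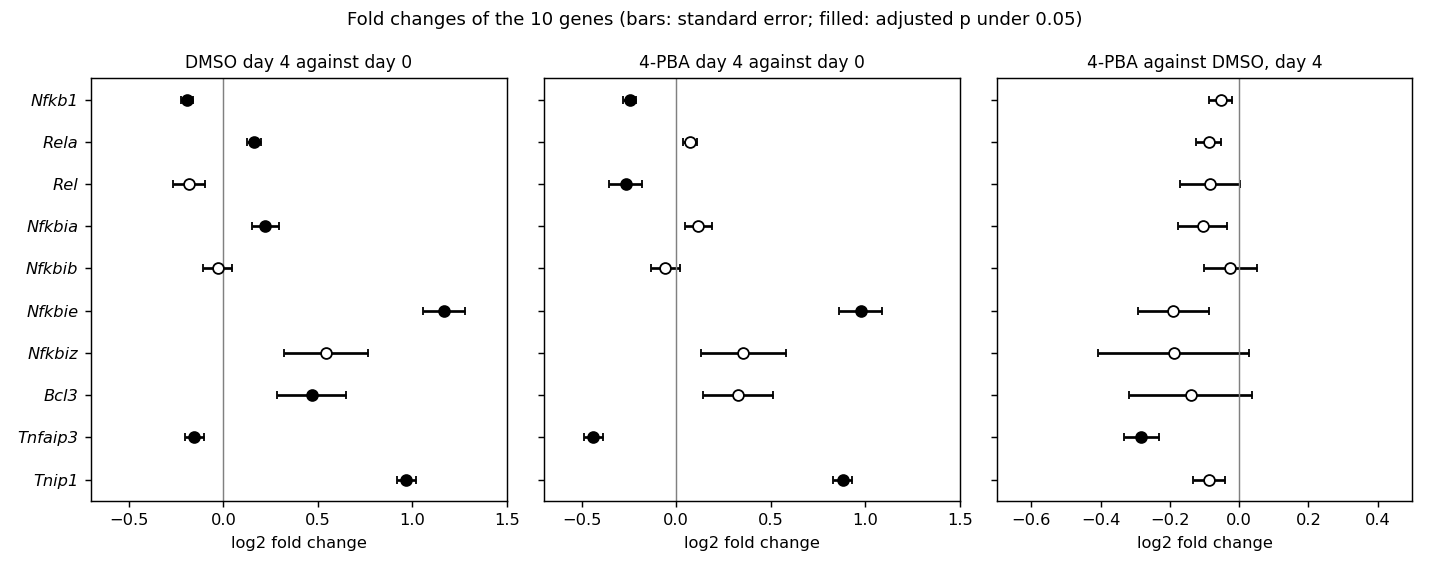
Log2 fold changes of the 10 genes in the 3 comparisons, with the standard error as a horizontal bar; filled points had an adjusted p under 0.05 and the third panel has a narrower axis. Nfkbie (1.17) and Tnip1 (0.97) lie farthest to the right for DMSO against day 0, and in the third panel all 10 points lie left of 0 with Tnfaip3 (-0.28) the filled one.

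Day 4 cells given 4-PBA were then compared with those given DMSO, which share time and medium. Tnfaip3 was the member that passed the test, and it fell by 17.8%. It was at 51.7 and 53.4 CPM under DMSO and at 45.5 and 40.9 CPM under 4-PBA, so the groups did not overlap. The log2 fold change was -0.28 (SE 0.0503, adjusted p 3.85e-04). It ranked 130 of 17433 genes by p-value. Its size depended on 4-PBA replicate 2, without which the log2 fold change was -0.21 and the call was lost (adjusted p 0.0735), in a range over 14 alternatives of 7.96e-07 to 0.0735. Thus 1 of the 10 genes was called, and none of them higher, against 4.90% of all genes, 2.13% higher and 2.78% lower.

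The other 9 genes had negative log2 fold changes that did not pass the threshold. Beside this, 49.4% of all tested genes had a negative value, and the median was -0.097 over the 10 genes and 0.0021 over all genes. Groups did not overlap for 6 of the 10 genes (Nfkb1, Rela, Nfkbia, Nfkbie, Tnfaip3 and Tnip1), against 45.5% of all genes. The 10 genes are not independent, since several are known targets of the same factor, and no test was made over them as a list. The summed level of 7 myogenic markers was 5050 and 5228 CPM under DMSO and 4915 and 4986 CPM under 4-PBA, and the part of this difference in the values below was not tested.

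For the subunits, the 4-PBA libraries stood at 124 and 126 CPM for Nfkb1, 114 and 112 CPM for Rela and 11.37 and 11.98 CPM for Rel. The log2 fold change against DMSO was -0.054 for Nfkb1 (95% interval -0.12 to 0.015, adjusted p 0.463) and -0.088 for Rela (-0.16 to -0.014, adjusted p 0.185). For Rel it was -0.083 (-0.26 to 0.092, adjusted p 0.717) with overlapping groups. The highest upper end among these separate intervals was 0.092 on the log2 scale, for Rel. Each interval rests on the spread between these libraries, which may be technical, so a rise between cultures was not tested. Rela had an unadjusted p of 0.0206, and it was called without DMSO replicate 2 (log2 fold change -0.12, adjusted p 0.0470).

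For the classical inhibitors, the 4-PBA libraries stood at 19.0 and 19.7 CPM for Nfkbia, below both DMSO libraries (log2 fold change -0.11, 95% interval -0.25 to 0.038, adjusted p 0.503). Nfkbie was at 8.36 and 9.21 CPM, also below both DMSO libraries (-0.19, interval -0.40 to 0.018, adjusted p 0.361). Nfkbib was at 16.7 and 18.0 CPM and overlapped DMSO (-0.026, interval -0.18 to 0.13, adjusted p 0.924). Tnip1 was at 59.1 and 62.8 CPM, below both DMSO libraries (-0.087, interval -0.18 to 0.0077, adjusted p 0.357). Bcl3 was at 2.38 and 2.83 CPM and overlapped DMSO (-0.14, interval -0.50 to 0.22, adjusted p 0.782).

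Nfkbiz separated the 4-PBA replicates rather than the groups. It was at 40.9 CPM in replicate 1 and 27.8 CPM in replicate 2, on either side of the DMSO libraries at 39.6 and 38.8 CPM. The gap of 0.55 on the log2 scale between these 4-PBA replicates was matched or exceeded by 22 of 10681 genes of at least 5 CPM, Nfkbiz included. The log2 fold change against DMSO was -0.19 (95% interval -0.85 to 0.48, adjusted p 0.788). Leaving out 4-PBA replicate 2 gave 0.062, and leaving out replicate 1 gave -0.49, which was called (adjusted p 1.61e-04). Tnfaip3 (by 0.15 on the log2 scale) and Rela (0.014) were also the higher in 4-PBA replicate 1. All remaining members were the lower there, namely Bcl3 (-0.25), Nfkbie (-0.14), Nfkbib (-0.11), Tnip1 (-0.087), Rel (-0.075), Nfkbia (-0.046) and Nfkb1 (-0.025).

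Setting the 4-PBA libraries against day 0 reuses libraries of both comparisons above. It called 5 of the 10 genes, 2 higher and 3 lower, against 65.6% of all genes (33.2% higher and 32.4% lower), and 9 of the 10 had groups that did not overlap, against 81.8% of all genes. Nfkbie (log2 fold change 0.98, SE 0.113, adjusted p 1.95e-09) and Tnip1 (0.88, SE 0.0492, adjusted p 1.28e-17) rose, 1.97-fold and 1.84-fold. Tnfaip3 fell by 0.44 (SE 0.0505, adjusted p 1.80e-09), Nfkb1 fell by 0.25 (SE 0.0340, adjusted p 7.91e-08) and Rel fell by 0.27 (SE 0.0865, adjusted p 0.00728) on the log2 scale. The call of Rel was lost without 4-PBA replicate 1 (adjusted p 0.0768). Rela (0.075, adjusted p 0.0726), Nfkbia (0.12, adjusted p 0.159), Nfkbib (-0.057, adjusted p 0.542), Nfkbiz (0.35, adjusted p 0.265) and Bcl3 (0.33, adjusted p 0.124) were not called. Rela was called in 4 of the 14 alternatives, with a lowest adjusted p of 0.0258. Nfkbiz was called in 2 and not in 12. On leaving out 1 library its log2 fold change ranged from 0.056 to 0.61, the highest without 4-PBA replicate 2.

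To relate inhibitors to the proteins they bind, the log2 CPM of a partner was subtracted from that of the inhibitor within each library, which removes the library scaling. These differences were described and not tested, since relabelling 2 libraries against 2 cannot give an exact p below 0.333. The pair Nfkbia and Rela, the classical inhibitor and its main client, stayed in nearly the same proportion. Nfkbia minus Rela was -2.64 and -2.54 in the day 0 libraries, -2.56 and -2.49 in those with DMSO, and -2.57 and -2.51 in those with 4-PBA, and all groups overlapped. Nfkbib minus Rela was -2.47 and -2.66 before differentiation, -2.77 and -2.76 under DMSO, and -2.76 and -2.64 under 4-PBA. Its DMSO libraries lay below both day 0 libraries, and the remaining groups overlapped.

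For the next 3 pairs the day 4 libraries all lay above those of day 0. For single genes, libraries did not overlap day 0 for 81.9% of all genes with DMSO and 81.8% with 4-PBA. The share over other pairs was not counted, here or for Tnfaip3 minus Tnip1 below. Nfkbie minus Rel was -1.67 and -1.63 at day 0, against -0.39 and -0.21 (DMSO) and -0.44 and -0.38 (4-PBA) at day 4. This is a 2.54-fold higher ratio of Nfkbie to Rel transcripts with DMSO than at day 0, and a 2.36-fold higher one with 4-PBA. The pair was chosen because c-Rel is a known client of IκBε, and the proteins were not measured. Nfkbiz minus Nfkb1 was higher by 0.74 with DMSO and by 0.58 with 4-PBA than at day 0, and Bcl3 minus Nfkb1 by 0.65 and 0.57. The 4-PBA replicates of Nfkbiz minus Nfkb1, at -1.60 and -2.18, spanned the DMSO libraries at -1.71 and -1.75 and lay as far apart as their mean lay from day 0. Leaving out 4-PBA replicate 1 or 2 gave 0.29 or 0.87 against day 0.

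Tnfaip3 minus Tnip1 had its sign inverted. It was 0.86 and 0.79 at day 0, against -0.31 and -0.29 (DMSO) and -0.38 and -0.62 (4-PBA) at day 4, without overlap between any groups. Against day 0 this difference was lower by 1.12 with DMSO (SD over 2 libraries 0.0544 at day 0 and 0.0193 with DMSO). The difference between 4-PBA and DMSO was -0.20, of about the same size as the SD of 0.169 between the 4-PBA replicates. The mean of the 7 inhibitors minus the mean of the 3 subunits was -2.05 and -2.02 at day 0, against -1.56 and -1.46 (DMSO) and -1.56 and -1.60 (4-PBA) at day 4. It was thus higher at day 4 by 0.52 with DMSO and by 0.45 with 4-PBA. The inhibitors did not rise alike. With DMSO against day 0, log2 fold changes were positive for 5 of the 7 inhibitors and negative for Nfkbib and Tnfaip3. Nfkbie (1.17) and Tnip1 (0.97) rose most. Between 4-PBA and DMSO the difference was -0.075, about the size of the SD of 0.069 between the DMSO libraries. These groups did not overlap, but their closest libraries were at -1.557 (DMSO) and -1.564 (4-PBA).

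**Figure D3:**
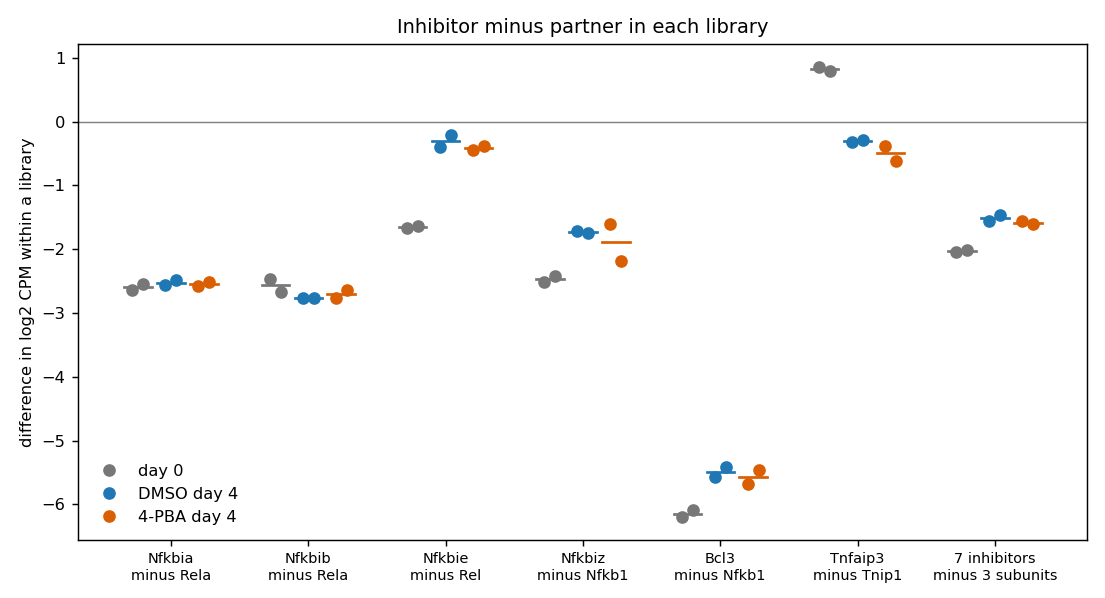
Difference in log2 CPM between an inhibitor and its partner within each library, for 6 pairs and for the mean of 7 inhibitors minus the mean of 3 subunits; points are libraries and lines are group means. Nfkbia minus Rela overlaps in all groups, Nfkbie minus Rel moves from -1.65 to -0.30 with DMSO, and Tnfaip3 minus Tnip1 crosses 0.

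The rest of the pathway was described with lists whose genes act upstream of, beside or downstream of the 10 genes. Of 19 tested receptors and adaptors, 9 were higher and 6 lower with DMSO than at day 0 (median log2 fold change -0.079). Beside this count and those of the lists below stand 33.8% higher and 32.6% lower over all genes. The smallest adjusted p-values belonged to Il1rap, the accessory chain of the interleukin-1 receptor, which fell by 0.91 (SE 0.0725, adjusted p 1.90e-13), and to Tnfrsf1a, a receptor of TNF, which fell by 0.27 (SE 0.0379, adjusted p 8.21e-08) on the log2 scale. Of the 12 genes of the IKK and TAK1 kinase complexes, 5 were higher and 4 lower (median 0.085). Ikbkb, which encodes the kinase that phosphorylates IκBα, rose by 0.37 (SE 0.0433, adjusted p 2.06e-09), while Ikbkg, which encodes the scaffold NEMO, fell by 0.45 (SE 0.0419, adjusted p 8.86e-12). In the machinery that degrades IκB, 2 of 7 tested genes were higher and 2 lower (median -0.026). Btrc, the ubiquitin ligase subunit that recognises phosphorylated IκB, rose by 0.55 (SE 0.0615, adjusted p 7.90e-10), and Nedd8, a modifier that activates this ligase, fell by 0.32 (SE 0.0397, adjusted p 7.56e-09).

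Of 13 tested other negative regulators, 8 were higher and 3 lower with DMSO than at day 0 (median 0.15, against 0.023 over all genes, of which 33.8% were higher and 32.6% lower). Rnf11, a ubiquitin ligase of the A20 complex, rose from 97.5 and 102 CPM to 294 and 330 CPM (log2 fold change 1.64, SE 0.0443, adjusted p 3.47e-16). Pdlim2, which promotes degradation of nuclear p65, rose from 83.1 and 78.3 CPM to 153 and 155 CPM (0.94, SE 0.0364, adjusted p 3.05e-22). Neither group pair overlapped. Among 19 tested classic target genes outside the pathway, 5 were higher and 7 lower (median 0.0019). The smallest adjusted p-values belonged to the chemokine gene Cxcl5, at -4.45 (SE 0.162, adjusted p 4.39e-23), and to Gadd45b, a stress-response gene, at 1.57 (SE 0.0778, adjusted p 3.76e-19).

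Between 4-PBA and DMSO, both noncanonical genes were called, as described below, and the other lists held 0 to 3 calls each. There was 1 of 19 among receptors and adaptors (median -0.074), 0 of 12 in the kinase complexes (-0.033) and 0 of 7 in the degradation machinery (0.0018). There was 1 of 13 among other negative regulators (-0.015) and 3 of 19 among target genes (-0.097), against 4.90% and a median of 0.0021 over all genes. The 2 genes with the smallest adjusted p in the kinase list were Ikbkg (log2 fold change -0.11, adjusted p 0.136) and Rbck1 (0.084, adjusted p 0.310). In the degradation list they were Ube2d3 (-0.045, adjusted p 0.519) and Btrc (-0.085, adjusted p 0.531). Every called gene of these lists was lower with 4-PBA.

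Zc3h12a, which encodes the RNase regnase-1 that degrades inflammatory transcripts, was the called gene among the other negative regulators. It was at 13.9 and 16.1 CPM at day 0, 26.0 and 26.4 CPM under DMSO and 19.4 and 18.8 CPM under 4-PBA. Against DMSO it fell by 0.46 on the log2 scale (SE 0.0717, adjusted p 7.6e-05). Otud7b, an A20 relative, was not called (-0.062, adjusted p 0.388). Among the targets, Bcl2l1, an anti-apoptotic gene, was at 56.0 and 55.1 CPM under DMSO and 47.1 and 45.2 CPM under 4-PBA (-0.27, SE 0.0466, adjusted p 3.13e-04). Traf1, a signalling adaptor, was at 1.82 and 1.78 CPM under DMSO and 0.693 and 1.16 CPM under 4-PBA (-0.96, SE 0.236, adjusted p 0.0108). The call of Traf1 was lost without 4-PBA replicate 1 (log2 fold change -0.63, adjusted p 0.296). The third called target, Ccl7, was outside the rule for named genes and is given because it was called. This chemokine gene was at 5.83 and 7.68 CPM under DMSO and 5.24 and 5.09 CPM under 4-PBA (-0.40, SE 0.114, adjusted p 0.0355). The call of Ccl7 was lost under 8 of 14 alternatives, which ranged in adjusted p from 1.94e-04 to 0.563, the highest without DMSO replicate 2 (log2 fold change -0.17). It was also lost without either day 0 replicate and without 4-PBA replicate 1 (0.176) or 2 (0.236).

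Traf2, an adaptor of the TNF receptors, was called at the edge of the threshold, with 43.5 and 40.1 CPM under DMSO and 34.9 and 38.5 CPM under 4-PBA (log2 fold change -0.18, SE 0.0558, adjusted p 0.0467). The call was lost under 10 alternatives, with an adjusted p of 0.113 with the DESeq2 Wald test and up to 0.545 without 4-PBA replicate 1. Traf5 (-0.22, adjusted p 0.0592) was not called. The noncanonical genes Nfkb2 and Relb, which are themselves induced by canonical NF-κB, were both called lower. Nfkb2 was at 87.6 and 89.1 CPM at day 0, 125 and 122 CPM under DMSO and 106 and 108 CPM under 4-PBA. Relb was at 13.9 and 12.9, 32.6 and 34.5, and 27.5 and 28.6 CPM in the same order. Its call against DMSO (adjusted p 0.00987) was lost without DMSO replicate 2 (0.0796), 4-PBA replicate 1 (0.170) or 4-PBA replicate 2 (0.0639). For Nfkb2 the log2 fold change against DMSO was -0.205 (SE 0.03625, adjusted p 3.59e-04). It ranged from -0.22 to -0.19 over 14 alternatives. Exons of Nfkb2 overlap those of Psd on the opposite strand.

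**Figure D4:**
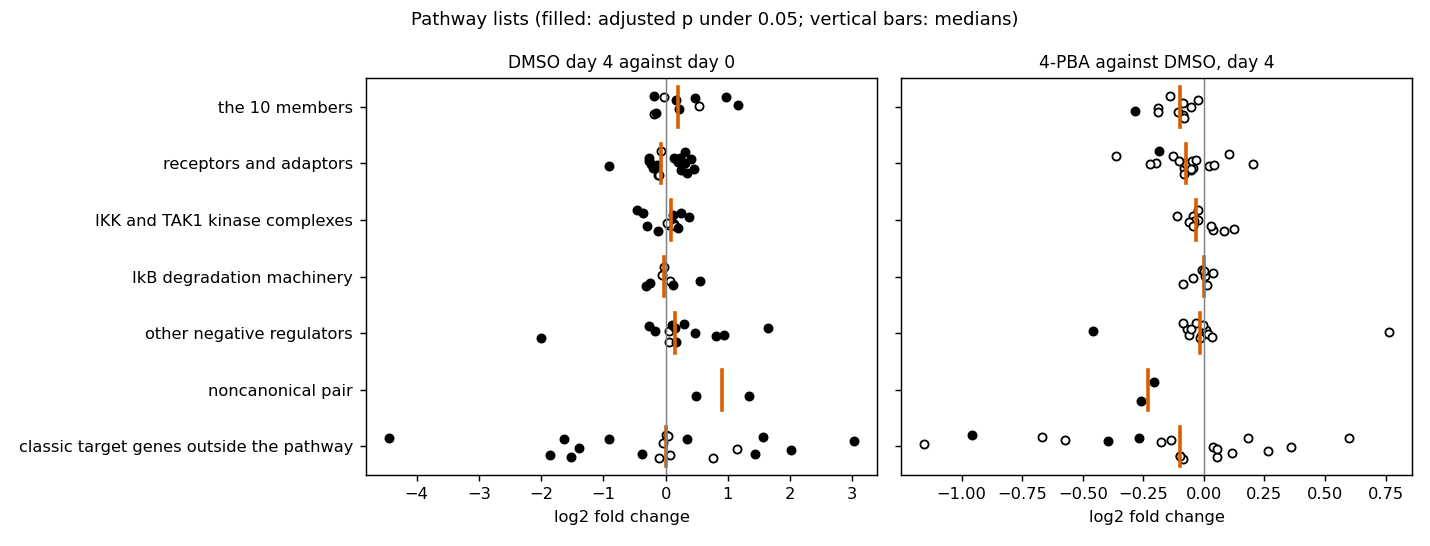
Log2 fold changes of the tested genes of each list for DMSO against day 0 (left) and 4-PBA against DMSO (right, narrower axis); filled points had an adjusted p under 0.05, orange bars are list medians, and points are spread vertically for legibility. On the right the filled points of every list lie left of 0, and the kinase and degradation lists have none.

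The promoter match was also set beside the expression of all genes. Of 1467 tested genes with a κB consensus match, 2.45% were called higher and 3.68% lower with 4-PBA than with DMSO, and of 10722 genes with no match 2.40% and 2.91%. The median log2 fold changes were 0.00042 and 0.0046. Among the lists, a match was present for 10 of 16 target genes with an entry, 5 of 10 other negative regulators and 4 of 18 receptors and adaptors. It was present for 1 of 9 kinase complex genes, 1 of 6 degradation genes and 1 of 1 noncanonical genes with an entry. Over all RefSeq genes the share was 9.55%. The target list was made of genes already known as NF-κB targets.

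The genes most like 3 of the members were found by the distance between log2 CPM profiles centred on their means over the 6 libraries, among 10680 genes of at least 5 CPM. Nearest to Nfkb1 were Plaa (distance 0.026), Mbd2 (0.028) and Pmpca (0.029). Nearest to Nfkbia were Bbip1 (0.038), Rnmt (0.045) and Pla2r1 (0.050), and nearest to Tnfaip3 were Apc2 (0.065), Pag1 (0.12) and Slc22a27 (0.12). Apc2 was at 12.4 and 12.1 CPM at day 0, 11.4 and 11.3 CPM under DMSO and 9.70 and 8.79 CPM under 4-PBA. This stepwise order is like that of Tnfaip3, which follows from the choice of Apc2 by its distance to Tnfaip3. None of the 9 nearest genes belongs to the pathway lists. Those lists hold few of the 10680 genes compared, so this count cannot show whether the members vary with the pathway.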

How the data were processed

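The deposited table holds raw counts per gene symbol, with 1 column per library and 0 columns of other samples. Build GRCm39 is named in the submitters' processing notes. The aligner, counting tool, annotation and strand setting are not given in the sources used here, so genes with exons overlapping the opposite strand are named as uncertain. The library kit is a directional one per the labels. Nothing in the labels ties replicates to separate cultures. The p-values then weigh a difference only against the spread between these libraries, which may be technical. The members and lists were chosen with earlier results of these data known.

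From these counts, edgeR 4.0.16 in R 4.3.3 filtered genes with filterByExpr and scaled libraries with TMM. It fitted 1 quasi-likelihood model (robust, 3 residual degrees of freedom) with a mean per group over all 6 libraries. The spread of each gene was drawn towards that of other genes, with a median of 30.4 prior degrees of freedom. For most genes, SEs, intervals and p-values thus rest largely on spread shared across genes. SEs are the log2 fold change divided by the square root of F. Log2 CPM used a prior count of 2. Exon length and overlaps came from GENCODE M21 (GRCm38), promoters from RefSeq. Alternatives included DESeq2 1.42.0, limma-voom (limma 3.58.1), other scalings and filters, a replicate block and leaving out each library. The scripts were tested on simulated data. Named genes were the members, Nfkb2 and Relb, in every list the 2 lowest adjusted p-values for DMSO against day 0 and for 4-PBA against DMSO, the 3 nearest profiles of Nfkb1, Nfkbia and Tnfaip3, and the markers. Figures were drawn with matplotlib 3.10.9.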

Additional observations from a re-analysis of the deposited data

How the results depend on the processing

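Nfkbie, Tnip1, Tnfaip3 and Nfkb1 kept their direction and call against day 0, with DMSO and with 4-PBA, in all 14 alternatives. The number of genes called between 4-PBA and DMSO was 855, and 424 with an adjusted p under 0.01. Leaving out 1 library gave 295 (without 4-PBA replicate 2) to 1194 (without DMSO replicate 1), and 341 without 4-PBA replicate 1. The number of the 10 genes called in that comparison was 0 to 2 on leaving out 1 library, and 1 in each of the other 9 alternatives. Leaving out 1 library gave 5 to 8 of the 10 genes for DMSO against day 0 and 4 to 6 for 4-PBA against day 0. Directions changed only on leaving out a library, for 2 members that were not called. Nfkbib ranged from -0.12 to 0.051 for DMSO against day 0, from -0.14 to 0.026 for 4-PBA against day 0 and from -0.083 to 0.031 for 4-PBA against DMSO, with 0.0043 and 0.0038 among the positive values. Nfkbiz ranged from -0.49 to 0.062 for 4-PBA against DMSO. The mean of inhibitors minus subunits ranged from 0.48 to 0.57, from 0.43 to 0.47 and from -0.12 to -0.027 in the 3 comparisons. Replicate numbers were shared between groups, but same-numbered libraries did not deviate together (correlations of -0.0098, -0.059 and -0.067), and the replicate block called 768 genes and 1 of the 10 genes between 4-PBA and DMSO. It changed no call of the 10 genes. The pathway genes were put through the same settings after the data were seen, and Traf2 lost its call against DMSO with the block (adjusted p 0.07). Bcl3 had the fewest counts of the 10 genes, down to 97 in a library, and depth limits it most.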

Other observations

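Among genes with a mean of at least 5 CPM, all of the 12 largest gaps between the 4-PBA replicates were higher in replicate 2. The largest was in Prl2c2, which was near 0 at day 4 (0.0322 and 0.129 CPM with 4-PBA). The genes named here were chosen from the others after their values were seen. Cmss1 was at 468 and 1044 CPM in 4-PBA replicates 1 and 2, 558 and 505 CPM with DMSO, and 600.4 and 325 CPM at day 0. Cdk8 was at 262 and 496, 273 and 263, and 329.6 and 224 CPM in the same order, and Camk1d at 68.9 and 139.5, 75.4 and 70.9, and 91.4 and 60.3 CPM. Mir6236 was at 65.5 and 155, 86.0 and 75.4, and 85.6 and 45.6 CPM. Each of Cmss1, Cdk8, Camk1d and Mir6236 was highest in 4-PBA replicate 2 and lowest in day 0 replicate 2. Nfkbiz was lower in 4-PBA replicate 2 than in replicate 1. The call of Tnfaip3 against DMSO was lost without 4-PBA replicate 2, and the part of these differences in it was not tested.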
